A study of Mus musculus with 12 samples.

Results

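The peaks described here are the intergenic H3K36me2 peaks that lay 5 to 50 kb from protein-coding genes in mouse somatosensory cortex. A peak was taken when its midpoint lay in no annotated gene body of any kind and was more than 5000 and at most 50000 bp from the nearest start or end of a protein-coding gene, on chromosomes 1 to 19, X or Y. The rule used positions alone and no measured value. It took 779 of 3722 peaks: 57 of 231 in the list for control cortex (Ctrl) and 722 of 3491 in the list for knockout cortex (cKO).

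The mark was mapped by chromatin immunoprecipitation followed by sequencing, with 12 libraries in 4 groups of 3: antibody and input libraries of each genotype. Knockout animals had the genotype Nsd1Nex-cKO: Cre recombinase under the control of Nex removes Nsd1 in postmitotic excitatory neurons of the forebrain. In each control group, 2 libraries were labelled Nsd1fl/+ and 1 Nsd1fl/fl, so Ctrl animals carried floxed Nsd1 too. All animals were 2.5 months old, and no other treatment is named in the labels. Labels do not give the sex. The somatosensory cortex was dissociated and no sorting is named, so it held interneurons, glia and vascular cells in which Nex-Cre is not active, and a change in 1 cell type and a change in the number of its cells cannot be told apart. Peak names inside the Ctrl list called it WT.

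H3K36me2 is written by the methyltransferases NSD1, NSD2, NSD3 and ASH1L. In many cell types it covers broad stretches between genes as well as gene bodies, where it is read by DNMT3A and limits the spread of Polycomb marks. Each genotype had 1 peak list and no values per replicate, so no test across replicates was made and no p-value was computed here. Intervals are 95% intervals, they treat peaks as independent, and they cover counting error only. Read depth behind each list was unknown from the lists, and a list's length depends on it.

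The sequences below are those of annotated features beside the members that recur in the results, from RefSeq for GRCm38.p6, the assembly that mm10 shares. The peaks' own sequence was not analysed here. One member overlapped an annotated promoter window, the 300 bases from 250 before to 50 after a gene start. This was a cKO peak at chr4:147411419-147411588 near the long noncoding RNA gene Gm46898, with a fold of 1.99 and a −log10 q of 0.0515. Its nearest protein-coding gene was Zfp978, a zinc finger gene. Capitals mark the 117 bases of the window that lie inside the peak (chr4:147411472-147411771, plus strand).
Gm46898 promoter: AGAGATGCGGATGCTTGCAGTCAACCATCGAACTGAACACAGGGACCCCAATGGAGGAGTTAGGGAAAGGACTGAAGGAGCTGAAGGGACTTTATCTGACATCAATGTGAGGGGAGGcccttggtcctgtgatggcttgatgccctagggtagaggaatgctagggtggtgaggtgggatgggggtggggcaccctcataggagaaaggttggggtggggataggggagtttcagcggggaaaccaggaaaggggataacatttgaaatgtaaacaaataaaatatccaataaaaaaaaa

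The cKO peak of highest fold lay near Bmpr2, which encodes a type II receptor for bone morphogenetic proteins, and that of Ctrl near the predicted gene Gm1979. Both lists had a peak upstream of Asb17, which encodes an ankyrin repeat protein. Their promoter windows are shown to place these peaks, with each CG, counted once since it reads the same on both strands, in capitals. The Bmpr2 window (chr1:59764029-59764328, plus strand) holds 23 CG, the Asb17 window (chr3:153843997-153844296, plus strand) 6 and the Gm1979 window (chr5:26004678-26004977, minus strand) 2. Among all protein-coding genes with a window, 59.5% have at least 10.
Bmpr2 promoter: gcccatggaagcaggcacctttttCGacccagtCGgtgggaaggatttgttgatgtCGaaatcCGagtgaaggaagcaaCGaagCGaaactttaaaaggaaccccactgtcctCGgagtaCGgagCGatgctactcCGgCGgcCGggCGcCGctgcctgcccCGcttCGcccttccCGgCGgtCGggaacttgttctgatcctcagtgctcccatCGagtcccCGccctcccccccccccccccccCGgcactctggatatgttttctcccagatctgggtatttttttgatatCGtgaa
Asb17 promoter: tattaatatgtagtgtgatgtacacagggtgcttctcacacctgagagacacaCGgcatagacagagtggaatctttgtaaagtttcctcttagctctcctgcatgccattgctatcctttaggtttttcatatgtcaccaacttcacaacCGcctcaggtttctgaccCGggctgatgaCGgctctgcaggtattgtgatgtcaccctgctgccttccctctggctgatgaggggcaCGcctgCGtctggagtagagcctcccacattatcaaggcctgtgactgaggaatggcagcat
Gm1979 promoter: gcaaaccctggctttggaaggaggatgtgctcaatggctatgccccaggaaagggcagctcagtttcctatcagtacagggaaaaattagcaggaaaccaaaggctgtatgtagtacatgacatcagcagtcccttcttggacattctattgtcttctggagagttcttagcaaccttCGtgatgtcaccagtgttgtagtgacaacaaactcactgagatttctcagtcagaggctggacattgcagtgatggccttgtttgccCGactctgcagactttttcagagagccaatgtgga

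A microRNA gene lay beside 1 place that both lists shared. The overlapping peaks of Ctrl (chr5:134327504-134327750) and cKO (chr5:134327490-134327796) upstream of Gtf2i lay 1.11 and 1.13 kb from the mature sequence of mmu-miR-3965 (chr5:134326494-134326512, plus strand). Capitals mark the seed, bases 2 to 8. Their folds were 2.07 and 2.68, and their −log10 q 0.00401 and 5.01.
mmu-miR-3965: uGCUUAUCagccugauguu

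In both lists the 5 to 50 kb zone held more peaks per base than the rest of the chromosomes. The zone spanned 428 Mb, or 15.8% of the annotated span of the chromosomes, and held 24.7% of Ctrl peaks (Wilson interval 19.6 to 30.6) and 20.7% of cKO peaks (19.4 to 22.1). In cKO cortex this was 1.69 peaks per Mb (exact Poisson interval 1.57 to 1.81) against 1.22 elsewhere, a ratio of 1.39 (1.27 to 1.504). In Ctrl cortex it was 0.133 peaks per Mb (0.101 to 0.172) against 0.0765, a ratio of 1.74 (1.27 to 2.36). Sequence outside genes but at most 5 kb away held 1.76 cKO peaks per Mb (1.54 to 2.00) and 0.0897 Ctrl peaks per Mb (0.0463 to 0.157), and both intervals overlapped those of the zone. Against intergenic sequence 50 to 300 kb from protein-coding genes, the ratio of densities was 1.62 in cKO (1.45 to 1.82) and 2.41 in Ctrl (1.51 to 3.91). Assembly gaps were not removed from these lengths.

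Within the zone, cKO peaks thinned out with distance. There were 204 members at 5 to 10 kb, 229 at 10 to 20 kb, 200 at 20 to 35 kb and 89 at 35 to 50 kb, which gave 2.21 (1.92 to 2.54), 1.81 (1.58 to 2.06), 1.62 (1.41 to 1.87) and 1.03 (0.830 to 1.27) peaks per Mb. The intervals of the nearest and farthest bins do not overlap, and the farthest bin had about the density of the sequence beyond it, 1.04 at 50 to 300 kb. Ctrl had 13, 16, 22 and 6 members in the same bins, or 0.141, 0.126, 0.179 and 0.0696 peaks per Mb, and all 4 intervals overlapped each other. Median distance was 16.5 kb (15.3 to 17.8) in cKO and 18.3 kb (13.7 to 23.6) in Ctrl.

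**Figure D1:**
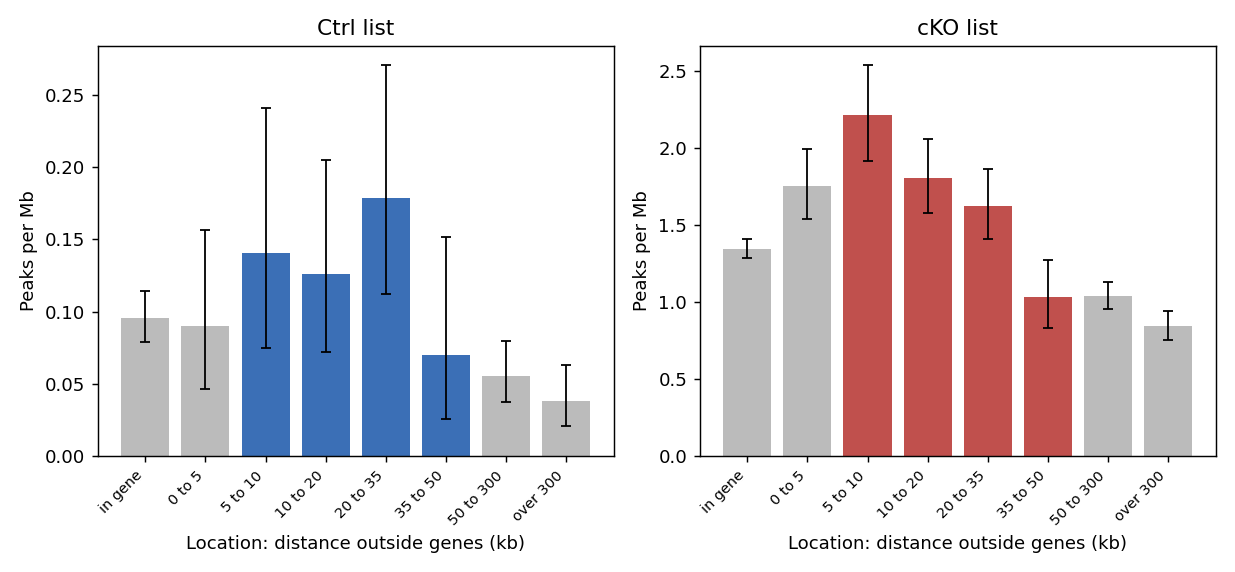
Peaks per Mb (vertical axis, linear from 0) by location, in gene bodies and at rising distance in kb from the nearest protein-coding gene, for the Ctrl list (left) and the cKO list (right), on different scales. Coloured bars are the intergenic zone of 5 to 50 kb, grey bars the other locations, and error bars exact Poisson 95% intervals. The cKO bars fall from 2.21 at 5 to 10 kb to 1.03 at 35 to 50 kb, and the Ctrl intervals overlap throughout the zone.

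Gene density moved with this. In 692 windows of 1 Mb that held 11 or more starts of protein-coding genes, the zone held 2.31 cKO peaks per Mb, against 1.33 in the other 2022 windows. The ratio of the zone to all other sequence was 1.19 (1.05 to 1.34) inside gene-rich windows and 1.34 (1.19 to 1.497) inside gene-poor ones for cKO. For Ctrl it was 0.942 (0.566 to 1.51) in gene-rich windows and 2.399 (1.57 to 3.59) in gene-poor ones, and the first of these intervals includes 1. The cKO density fell from the nearest to the farthest bin in both kinds of window, from 2.65 to 1.33 and from 1.73 to 0.955 peaks per Mb.

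The enrichment of the members was close to that of each whole list. Fold enrichment, the deposited ratio of immunoprecipitated reads to the caller's local background, had a median of 2.82 (2.80 to 2.84) and a range of 1.24 to 4.96 in cKO members, beside 2.82 in the whole cKO list. In Ctrl members the median was 2.37 (2.18 to 2.66) and the range 1.28 to 3.63, beside 2.18 in the whole Ctrl list. A q-value under 0.05 was carried by 135 cKO members (18.7%, 16.02 to 21.7), and by 18.4% of all cKO peaks. In Ctrl it was carried by 6 members (10.5%, 4.91 to 21.1), and by 9.96% of all Ctrl peaks. A −log10 q of at least 2 was reached by 80 cKO members (11.1%, with 10.7% in the list) and 5 Ctrl members (8.77%, with 8.66% in the list). The shares therefore lay near the background of each list. A q-value of 0.5 or more was listed for 336 cKO members (46.5%) and 32 Ctrl members (56.1%). The shares of the whole lists at 0.5 are not given here. Median −log10 q was 0.345 in cKO members, beside 0.300 in the whole cKO list, and 0.168 in Ctrl members, beside 0.0681.

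Fold varied little with distance in cKO. The median ran from 2.81 to 2.86 over the 4 distance bins in cKO and from 2.31 to 2.73 in Ctrl, where the bins held 6 to 22 members and their intervals overlapped. Spearman's rho between distance and fold was 0.04 over 722 cKO members and 0.09 over 57 Ctrl members. These are descriptions over peaks of 1 list, which share libraries and input. The share of cKO members with a q-value under 0.05 was 26.0% (20.4 to 32.4) at 5 to 10 kb, then 17.0% (12.7 to 22.4), 15.5% (11.1 to 21.2) and 13.5% (7.88 to 22.1). Peaks of both lists were narrow for a mark that forms domains. Median widths were 252 bp in cKO members and 313 bp in Ctrl members, beside 250 and 294 bp in the whole lists. The members covered 203715 bp in cKO and 20938 bp in Ctrl.

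**Figure D2:**
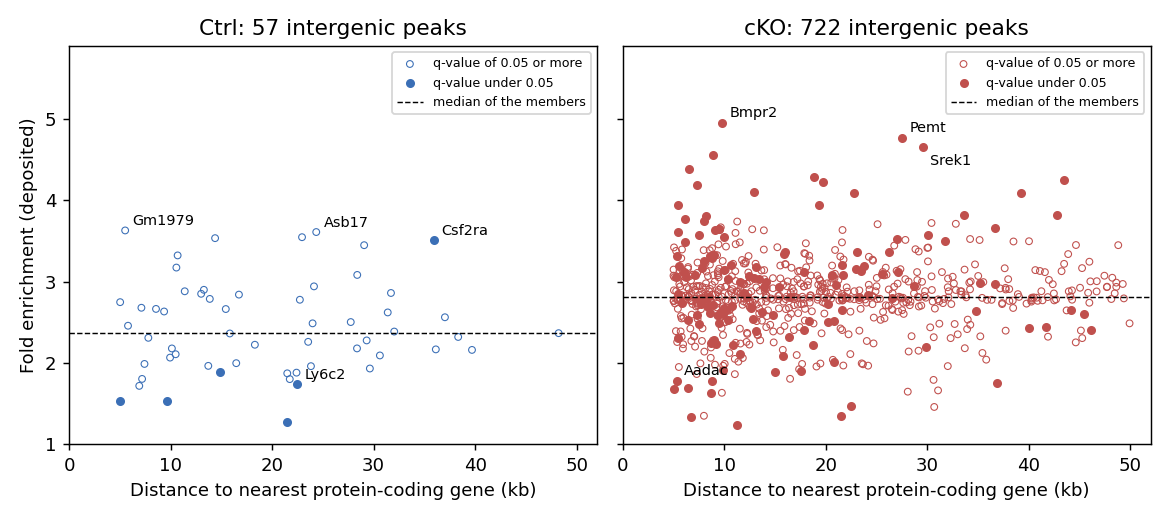
Deposited fold enrichment (vertical axis) of each intergenic peak against the distance in kb from its midpoint to the nearest protein-coding gene, for 57 Ctrl peaks (left) and 722 cKO peaks (right). Filled points have a q-value under 0.05, open points do not, and the dashed line is the median, 2.37 for Ctrl and 2.82 for cKO. The peak near Bmpr2 is the highest in cKO at 4.96, while the peaks near Aadac and Ly6c2 have low q-values at folds under 2.

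The cKO peaks of highest fold lay near genes of varied function. The peak near Bmpr2 had a fold of 4.96 and a −log10 q of 4.36 (mm10, chr1:59754395-59754559), 9.80 kb upstream of the gene start. Pemt, which encodes an enzyme of phosphatidylcholine synthesis, followed with a fold of 4.77 (chr11:60074021-60074195, 27.5 kb upstream, between Pemt and Rai1). Srek1, a splicing regulator gene, was the nearest protein-coding gene to a peak of fold 4.66 (chr13:103708870-103709067, 29.6 kb downstream), although the long noncoding RNA gene Gm30551 ended 1.34 kb from it. Gm5891, a predicted gene beside the vomeronasal receptor gene Vmn1r137, had 1 of fold 4.56 (chr7:21930145-21930321, 8.94 kb upstream). These 4 peaks were 165 to 198 bp wide.

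The other 6 of the 10 highest folds were found near Rpl17, a gene of the large ribosomal subunit (4.39), the olfactory receptor gene Olfr472 (4.29), the predicted gene Gm46977 (4.25), Nipal2 (4.23), the monocarboxylate transporter family gene Slc16a9 (4.19) and the pluripotency factor gene Pou5f1, also known as Oct4 (4.10). All 10 had a q-value under 0.05, 0 overlapped a Ctrl peak and 0 lay in a dense region, a place where 3 or more further peaks, counted over both lists, lay within 100 kb. In the whole cKO list 18.4% of peaks had a q-value under 0.05, 2.81% overlapped a Ctrl peak and 8.25% lay in dense regions. Upstream of the nearest gene lay 6 of the 10 and downstream 2, and 2 had no strand assigned. Among all 722 cKO members, 317 lay upstream, 257 downstream and 148 beside a gene without a strand.

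A different set led by q-value. The peak near Aadac, which encodes the esterase arylacetamide deacetylase, had the highest −log10 q of the cKO members, 28.03, at a fold of only 1.78 (chr3:60045175-60045793, 619 bp wide, 5.33 kb downstream). Next came the peak near 9230019H11Rik with 18.7 at a fold of 1.91, the peak near Gm15319 with 8.45 at 1.69 and a peak near the monocyte surface protein gene Ly6c2 with 8.17 at 1.35. Peaks of high fold and low q-value also occurred. Csf3r, the receptor gene for granulocyte colony-stimulating factor, had 1 of fold 3.82 and −log10 q 8.13 (chr4:125980618-125980764, 42.8 kb upstream).

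The remaining 5 of the 10 lay near Ttc26, a ciliary transport gene (7.58, fold 3.17), Gspt1, a translation termination factor gene (6.61, fold 3.31), Asb17 (6.18, fold 3.03), the zinc finger gene Zfp345 (5.98, fold 3.19) and P4ha2, a collagen prolyl hydroxylase gene (5.95, fold 1.63). Of all 722 cKO members, 13 had a −log10 q of at least 5 and 2 of at least 10. The highest value in the whole cKO list was 1004. Shares of the whole list at these limits are not given here, so neither count is called high or low. The Asb17 peak lay 0.373 kb from the pseudogene Gm25757.

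The widest cKO members spanned 1025 bp near Speer4c (fold 2.19), 876 and 752 bp near 9230019H11Rik (1.34 and 1.91), 860 bp near Postn, which encodes the matrix protein periostin (2.86), and 741 bp near Swap70 (3.08). Of these 5, 3 lay in dense regions. A width of at least 500 bp was found in 50 cKO members (6.93%, with 8.22% of the whole list) and in 14 Ctrl members (24.6%, with 20.3%).

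In the Ctrl list the 10 highest folds ran from 2.94 to 3.63, and most were weakly supported. They were taken from 57 members, against 722 in cKO, and each list had its own background. No lower level in Ctrl cortex is read from them. The peak near the predicted gene Gm1979 had a fold of 3.63 and a −log10 q of 0.521 (chr5:26011863-26012056, 5.52 kb upstream). Asb17 followed with 3.61 and 0.185 (chr3:153819814-153819982), then the intestinal defensin gene Defa21 with 3.55, the myelin and lymphocyte protein gene Mal with 3.54 and Csf2ra, a receptor gene for granulocyte-macrophage colony-stimulating factor, with 3.51. The other 5 lay near the class I histocompatibility gene H2-M9 (3.45), the vomeronasal receptor gene Vmn1r183 (3.32), the cyclooxygenase gene Ptgs1 (3.17), Rex2 (3.08) and the F-box gene Fbxo27 (2.94). Only the Csf2ra peak (chr19:61264319-61264470, 35.9 kb upstream) had a q-value under 0.05, with a −log10 q of 2.84. A cKO peak overlapped 0 of the 10, beside 42.4% of all Ctrl peaks. Upstream lay 8 of the 10 and downstream 2, while 22 of all 57 Ctrl members lay upstream and 28 downstream. No preference for a side is read from these 10.

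The 5 Ctrl members of highest −log10 q were 2 near Ly6c2 (4.31 and 2.58), 2 near 9230019H11Rik (4.26 and 2.32) and the one near Csf2ra. The first 4 lay in dense regions, had folds of 1.28 to 1.74 and were each shared with cKO. The widest were 973 bp near Speer4f1, 920 bp near Gm21190, 728 bp near Gm17019, 639 bp near Speer4d and 625 bp near Defa21. Of these 5, 4 lay on chromosome 5.

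Both lists held a member upstream of Asb17 without overlap, in the same gap of 119 kb between St6galnac3 and Asb17. The Ctrl peak lay 24.3 kb and the cKO peak 13.4 kb from the gene start, with −log10 q of 0.185 and 6.18. They are different places near 1 gene.

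The lists shared 21 members, and every overlapping peak of the other list was itself in the zone. This was 36.8% of Ctrl members (25.5 to 49.8), beside 42.4% of all Ctrl peaks, and 2.91% of cKO members (1.91 to 4.41), beside 2.81% of all cKO peaks. Both shares lay near their background. Shared peaks were of low fold: the Ctrl folds ran from 1.28 to 2.68 with a median of 2.09 (1.88 to 2.31), against 2.69 (2.37 to 2.88) in the 36 Ctrl members without a cKO overlap. In cKO the overlapped members had a median of 2.11 (1.89 to 2.65), against 2.82 (2.81 to 2.86) in the other 701. A q-value under 0.05 was carried by 5 of the 21 in Ctrl and 14 in cKO. The same counts over all 98 overlapping peaks of each list are not given here, so neither is read as a trait of the members.

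The 5 shared members of highest Ctrl −log10 q were near Ly6c2, 9230019H11Rik and Gm21190. Near Ly6c2, chr15:75085512-75085812 had a fold of 1.74 and a −log10 q of 4.31 in Ctrl, and 1.48 and 1.56 in the cKO list. Its neighbour at chr15:75086356-75086936 had 1.28 and 2.58 in Ctrl, and 1.35 and 8.17 in cKO. Upstream of 9230019H11Rik, chr10:3110037-3110332 had 1.54 and 4.26 in Ctrl, and the wider cKO peak had 1.91 and 18.7. The other peak there, chr10:3114557-3114999, had 1.54 and 2.32 in Ctrl and 1.67 and 5.74 in cKO. Near Gm21190, chr5:15509173-15510092 had 1.88 and 1.89 in Ctrl and 1.89 and 3.20 in cKO. Each list was scored against its own background, so these values stand side by side and no change is read from them.

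Of the other 16 shared members, 7 had chromosome 5 genes nearest: Speer4f1, Speer4d (2 members), Speer4c, Gm10354, Gm21083 and Gtf2i, the general transcription factor gene described with its microRNA neighbour. The other 9 lay near the kinase gene Stk39, Zfp658, Scaf8, the Ras GTPase-activating gene Rasal2, Gm40035, Susd6, Ccdc88b, Heatr3 and Suv39h1, which encodes an H3K9 methyltransferase. Near Suv39h1 the Ctrl peak (chrX:8045600-8045867) had a fold of 2.66 with a q-value listed as 1, and the cKO peak had 2.94 with a −log10 q of 1.86. Zfp658 had 2.46 and 1.04 in Ctrl against 2.74 and 4.39 in cKO. Over the 21 pairs the cKO value was above the Ctrl value in 14 for fold and 17 for −log10 q.

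**Figure D3:**
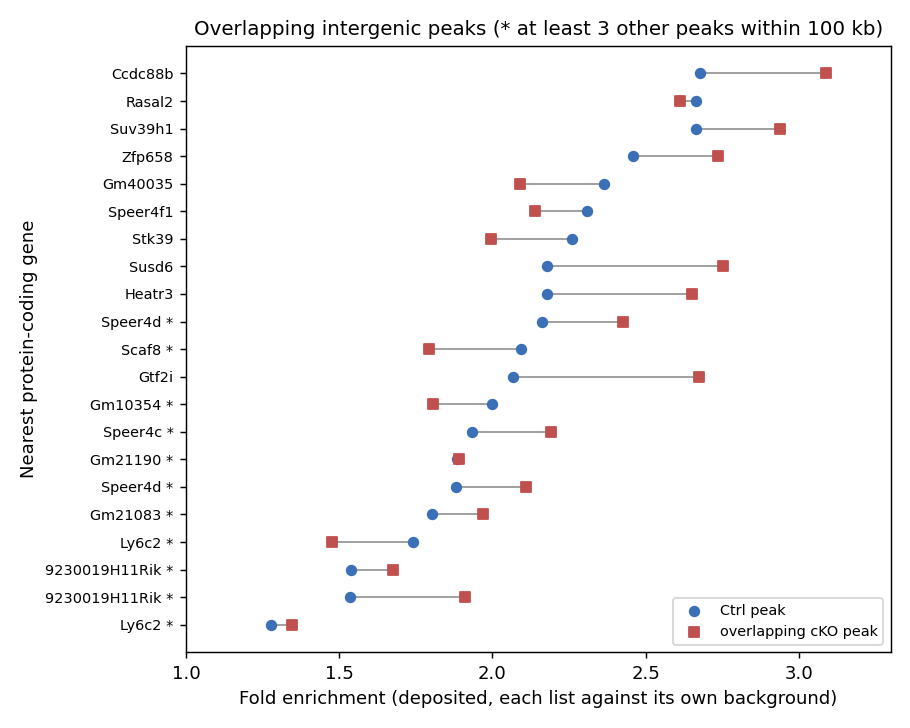
Deposited fold enrichment (horizontal axis) of the 21 intergenic Ctrl peaks that overlap a cKO peak (circles) and of the cKO peak that overlaps them (squares), 1 row per pair, named by the nearest protein-coding gene. An asterisk marks Ctrl peaks in dense regions. The Ctrl folds run from 1.28 to 2.68, and the cKO square is to the right of the circle in 14 of 21 pairs.

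Dense regions held 24 Ctrl members (42.1%, 30.2 to 55.0) and 59 cKO members (8.17%, 6.39 to 10.4). In the whole lists these shares were 49.8% and 8.25%. Median fold was lower there, 1.96 (1.80 to 2.16) against 2.66 (2.39 to 2.88) in Ctrl and 2.24 (1.99 to 2.35) against 2.84 (2.81 to 2.88) in cKO. The ratio of cKO to Ctrl members was 12.7 over all members, 2.46 in dense regions and 20.1 outside them. For all peaks, dense or not and of any q-value, it was 15.1. Dense regions held 288 of 3491 cKO peaks and 115 of 231 Ctrl peaks in the whole lists. For members with a q-value under 0.05 the ratio was 22.5, where the whole lists had 641 such cKO peaks and 23 such Ctrl peaks. The ratios of 20.1 and 22.5 are therefore not read as high for the members. Without dense members, 10 of 33 Ctrl members were shared with cKO, and 1 of the 33 had a q-value under 0.05.

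Most gaps that held a member held only 1 of the same list. Peaks outside the zone and peaks of the other list were not counted here, so such a member could still lie in a dense region. Gaps were counted between protein-coding genes, and also before the first and after the last such gene of a chromosome. The 722 cKO members fell in 667 gaps, of which 622 held 1 member, 37 held 2 and 8 held at least 3. The 57 Ctrl members fell in 46 gaps, of which 39 held 1. Median gap length was 77.3 kb (71.7 to 84.9) for cKO and 64.4 kb (50.7 to 89.0) for Ctrl. It was taken over the 662 cKO and 44 Ctrl gaps with a protein-coding gene on both sides. The lists had 24 gaps in common.

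The genes nearest to the most members were mostly genes named Gm or Rik and genes of the Speer4 family. In Ctrl these were Speer4d with 4 members and Gm17019 with 3, followed by 9230019H11Rik, Gm21149, Ly6c2 and Zfp978 with 2 each. In cKO, 9230019H11Rik had 5, with folds of 1.34 to 2.73, and 6 genes had 3 each: Apba2, Gm10354, Gm17019, Gm21119, Gm21149 and Speer4d. Apba2, which encodes a presynaptic adaptor protein, was the only one of these 7 without a Gm, Rik or Speer4 name, and its 3 members lay 14.9 to 30.6 kb upstream with folds of 1.99 to 2.59. Genes named Gm or Rik were nearest to 14.4% of cKO members (12.03 to 17.2) and 28.1% of Ctrl members (18.1 to 40.8). The share of such names among all protein-coding genes is not given here, so neither value is called high.

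Fgfr4, a fibroblast growth factor receptor gene, had 1 cKO member on each side, with folds of 3.57 and 3.11. The second (chr13:55175866-55176343, −log10 q 0.738) lay in the gap between Fgfr4 and the targeted gene Nsd1. The whole Ctrl list had 0 peaks on chromosome 13, in the zone or outside it.

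Distinct nearest genes numbered 672 for cKO, or 3.07% of 21883 protein-coding genes, and 48 for Ctrl, or 0.219%, with 24 genes in both. Gene lists were read against these shares, by counts alone. Of retinoic acid, BMP and TGF-beta pathway genes, 3 of 44 were nearest to a cKO member: Bmpr2, the inhibitory helix-loop-helix gene Id4 (fold 3.16) and the BMP ligand gene Bmp5 (2.96). Of axon guidance genes, 3 of 33 were: the ephrin receptor gene Epha4 (3.60), the semaphorin co-receptor gene Plxna4 (3.49) and the ligand gene Slit2 (2.93). Synaptic adhesion, scaffold and glutamate receptor genes had 2 of 35, the AMPA receptor subunit gene Gria1 (3.20) and the neurexin gene Nrxn3 (2.79). Bmpr2 had the only q-value under 0.05 among these 8 members.

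Lists of neuronal identity genes had at most 1 gene each. In the lists with 1, that gene alone gave 4.55 to 5.56%, beside 3.07% of all genes. A single gene takes any list of 18 to 22 genes above that share, so no excess is read. Upper-layer genes had 0 of 18, deep-layer genes 1 of 18 (Syt6, a synaptotagmin gene, 2.75), cortical area patterning genes 1 of 19 (the growth factor gene Fgf8, 2.27) and inhibitory interneuron markers 1 of 22 (the transcription factor gene Sox6, 2.79). Immediate early genes had 1 of 18, Fos (2.80). Developmental Polycomb targets had 2 of 40 in cKO, the homeobox genes Barhl2 (3.14) and Pax7 (2.84), and 1 in Ctrl, the LIM homeobox gene Lhx9 (2.17). Oligodendrocyte, astrocyte, and microglial and vascular markers each had 0 of 16, genes that set or read H3K36 methylation, DNA methylation and Polycomb marks 0 of 27, and housekeeping genes 0 of 22. When every gene within 50 kb of a cKO member was counted in place of the nearest, housekeeping genes had 5 of 22, beside 1301 of all 21883 protein-coding genes. Oligodendrocyte markers then had 1 of 16, and the list of H3K36 methylation, DNA methylation and Polycomb genes 1 of 27. These counts carry no test.

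The 2 large families had more members by number. Olfactory and vomeronasal receptor genes had 51 of 1463 nearest to a cKO member (3.49%), led by Olfr472, Vmn1r16 (3.95), Vmn2r51 (3.67) and Vmn1r242 (3.50), and 1 in Ctrl, Vmn1r183. Zinc finger genes named Zfp had 17 of 397 (4.28%), led by Zfp970 (3.72), Zfp516 (3.34), Zfp345 (3.19) and Zfp386 (3.16). In Ctrl they had Zfp978 (2.84) and Zfp658 (2.46). Counting every gene within 50 kb of a cKO member gave 142 of 1463 receptor genes and 26 of 397 Zfp genes, beside 1301 of all 21883. A q-value under 0.05 was carried by 5 of the 18 cKO members near Zfp genes and by 6 of the 52 near receptor genes, beside 18.7% of all cKO members.

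Members lay on both sides of genes. In cKO, upstream of the nearest gene lay 317 members and downstream 257, or 1.75 (1.56 to 1.95) and 1.64 (1.45 to 1.85) per Mb of sequence on that side, and 148 lay next to a gene whose strand was not assigned. In Ctrl, 22 lay upstream and 28 downstream, or 0.121 (0.0760 to 0.184) and 0.179 (0.119 to 0.258) per Mb. The intervals overlapped in both lists.

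Promoter CG content of the nearest genes was set beside that of all protein-coding genes. Where a gene had several windows, the one with the most CG was counted. A window with at least 10 CG was found for 54.0% of 533 nearest genes of cKO members that had a window (49.8 to 58.2), 33.3% of 42 for Ctrl members (21.0 to 48.4) and 59.5% of all 17491 protein-coding genes with one. By side, the share was 58.4% (52.7 to 63.8) for genes with a cKO member upstream and 47.4% (41.2 to 53.6) for those with one downstream, and the first of these intervals includes the value for all genes. In Ctrl the shares were 38.1% (20.8 to 59.1) and 26.1% (12.5 to 46.5). The median number of CG was 12 for cKO, 5.5 for Ctrl and 15 for all genes. Genes named Gm or Rik were nearest to a larger share of Ctrl than of cKO members, as given above, and their part in this was not tested.

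A noncoding gene or pseudogene was nearer than the nearest protein-coding gene for 353 cKO members (48.9%) and 32 Ctrl members (56.1%). Within 1 kb of one lay 30 and 5 members. So the distance of at least 5 kb holds for protein-coding genes, not for every annotated gene.

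By chromosome, cKO members were most dense on chromosome 5, with 75 members or 3.28 per Mb of the zone (2.58 to 4.12), and chromosome 7, with 77 or 2.52 (1.99 to 3.15). Chromosome 5 had 20 of the 59 dense cKO members. Chromosome 19 had 1.09 (0.544 to 1.95), X 1.42 (1.06 to 1.87) and Y 0.194 (0.0529 to 0.497) from 4 members. In Ctrl, chromosome 5 held 16 of 57 members or 0.701 per Mb (0.401 to 1.14), of which 13 were in dense regions. Chromosomes 11 and 16 had 0 Ctrl members, which allows up to 0.210 and 0.271 per Mb, although the Ctrl list had 32 and 7 peaks there outside the zone. Chromosomes 13 and Y had 0 Ctrl peaks of any location, and 0 members there allow up to 0.183 and 0.179 per Mb.

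**Figure D4:**
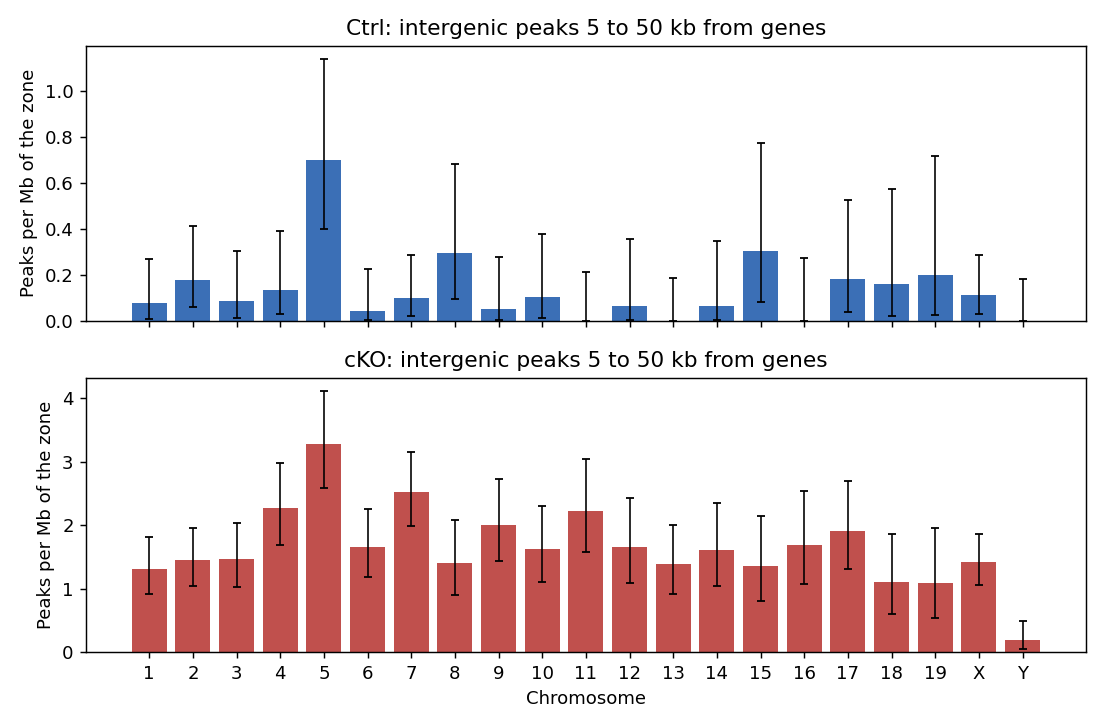
Intergenic peaks per Mb of the 5 to 50 kb zone (vertical axes, linear from 0, on different scales) by chromosome, for the Ctrl list (top) and the cKO list (bottom), with exact Poisson 95% intervals. Chromosome 5 is the highest in both, with 0.701 and 3.28.

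At the limits of the rule, the cKO members just beyond 5 kb lay near Cass4 (5.00 kb, fold 3.07) and Proc (5.01 kb, 3.15), and the peaks just short of it near Thra (4.94 kb, 3.00) and Vmn1r233 (4.96 kb, 3.34). At 50 kb the last members lay near Piwil1 (49.4 kb, 2.79) and Spin4 (49.9 kb, 2.49), and the next peaks near Fam110c (50.5 kb, 2.75) and Btg1b (50.9 kb, 2.88). In Ctrl the innermost members lay near Gm40469 (5.03 kb, 2.75) and 9230019H11Rik (5.06 kb, 1.54), with Gm17019 (4.58 kb, 2.02) and Speer4e (4.18 kb, 2.16) just short of the limit. The outermost lay near Smgc (48.2 kb, 2.37) and Speer4d (39.7 kb, 2.16), with Foxp4 (52.8 kb, 3.42) and Gm40469 (53.9 kb, 2.45) beyond.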

How the data were processed

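H3K36me2 and input chromatin of somatosensory cortex were sequenced in 12 libraries, 6 per genotype. Cutadapt, Bowtie2 2.4.4, MACS2 and build mm10 are named without roles, per the submitters' processing notes. How peaks were called and filtered, and the read depth, are not given in the sources used here. Labels of all 6 libraries of a genotype name the same broad peak list, so replicates could not be compared. Each deposited fold is a ratio to the local background of the peak caller, and each deposited −log10 q is the caller's adjusted value. The deposited score and, in 2 columns, −log10 p were not used.

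Positions were made 1-based and annotated with a RefSeq table of GRCm38.p6 (49939 genes on chromosomes 1 to 19, X and Y, 21883 protein-coding). The table has no strand. Strand came from the promoter windows, for 79.9% of protein-coding genes. The zone's length ran over each chromosome from its first to its last annotated or peak base. Peaks of both lists overlapped when they shared at least 1 bp. Shares carry Wilson intervals, densities exact Poisson intervals, and medians intervals from order statistics. Ratios of densities carry exact intervals that take both counts as Poisson. The rule gave the same calls as a direct reading on random positions in a test.

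The members, 17 gene lists and alternatives were chosen with earlier results of these data known, so no list is independent evidence. The result of 1 list is not reported here. Peaks were named by rule: the 10 highest folds, the 10 (cKO) or 5 (Ctrl) highest −log10 q and the 5 widest of each list, every shared member, the genes nearest to the most members, up to 4 genes per gene list by fold, and 2 peaks on each side of each limit. Fgfr4, the Gm46898 overlap and the microRNA were added after their values were seen. Python 3.11.15 with NumPy 2.4.6, pandas 2.3.3 and SciPy 1.17.1 was used.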

Additional observations from a re-analysis of the deposited data

How the results depend on the processing

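Of 58 alternative values, 40 stayed within the interval of the main value, or within 1.5 times a main count, and 18 did not. With a −log10 q of at least 2 asked of both lists, Ctrl had 5 members, 0.0117 per Mb, a median fold of 1.54 and 60.0% overlapped by a cKO peak that also passed (4 of the 5 overlapped a cKO peak of any q-value). In cKO it left 80 members, 0.187 per Mb, a median fold of 2.95 and a median distance of 13.6 kb. The ratio of the zone to other sequence was then 1.45 (1.11 to 1.86) in cKO and 1.77 (0.503 to 5.13) in Ctrl. Without dense regions Ctrl had 33 members, 0.0771 per Mb, a median fold of 2.66 and 3.03% with a q-value under 0.05, while cKO had 1.55 per Mb and 1.51% overlapped. An upper distance of 30 kb gave 1.90 cKO peaks per Mb. Counting every protein-coding gene within 50 kb took the number of distinct named list genes near cKO members from 15 to 23, of 368, and 5 of the 8 added were housekeeping genes. Windows by gene density, an alternative chosen after seeing the data, gave 2.31 (rich) and 1.33 (poor) cKO peaks per Mb. Requiring every base to meet the rule left 55 Ctrl and 710 cKO members, and ignoring noncoding genes gave 68 and 859.

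No paired analysis was possible because the deposited lists carry nothing per library, and no replicate was left out for the same reason. Read depth, which is unknown, limits every count of peaks and the ratio of cKO to Ctrl members.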

Other observations

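Beyond the peaks named by rule, 3 members at genes of early development were picked out after their values were seen. Near Nanog, a pluripotency factor gene like Pou5f1, a cKO member (chr6:122697873-122698056) had a fold of 3.65 and a −log10 q of 3.58, and the pseudogene Gm10224 lay 0.377 kb from it. Near Osr1, which encodes a zinc finger factor of kidney and limb development, cKO had 2 members with folds of 2.60 and 2.75. No list of such genes was counted, so no share stands behind them.

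Exact repeats of 1 fold value occurred in the cKO list. The same fold to every deposited digit, 2.81 when rounded, was listed for 11 members and for 76 of all 3491 cKO peaks, and the next most frequent value among the members was listed for 3. No fold value recurred among the 57 Ctrl members. The cause was not tested.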
